A study of Mus musculus with 8 samples.

Results

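The transcripts of 10 genes that encode proteins of the nuclear lamina and of the general linker of nucleoskeleton and cytoskeleton (LINC) complexes were examined in whole testes of mice that lost *Spdya* in germ cells. The genes were chosen by name and were found as 10 rows among the 54532 genes of the deposited expression table. They were *Lmna*, *Lmnb1* and *Lmnb2*, *Lbr*, *Tmpo*, *Lemd3* and *Banf1*, and *Sun2*, *Syne1* and *Syne2*. RNA had been sequenced from 4 *Sync-Spdya* fl/fl control testes (Spdyafl/fl) and 4 *Sync-Spdya* cKO testes (Spdyafl/fl;Ddx4-CreERT2), with 1 library per mouse. Both groups were homozygous for the floxed *Spdya* allele on the C57BL/6J background, both had spermatogenesis synchronized as neonates by an inhibitor of retinoic acid (RA) synthesis followed by RA, and both received tamoxifen, which the labels place at RA7.5 and RA8.5. Testes were collected at RA11.5, 11.5 days after RA, when the synchronized germ cells are described as mid-late pachytene. Only the cKO mice carried *Ddx4-CreERT2*, a Cre that tamoxifen activates in germ cells and that removes exon 2 of *Spdya*, so that somatic cells of these testes should keep the gene. The stated purpose of the experiment was to ask whether sex chromosome silencing was disturbed, and the genes described here were not its target.

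The nuclear lamina is a meshwork of A-type lamins (lamin A and lamin C, both from *Lmna*) and B-type lamins (from *Lmnb1* and *Lmnb2*) beneath the inner nuclear membrane. Membrane proteins such as the lamin B receptor (*Lbr*), the lamina-associated polypeptide 2 isoforms (*Tmpo*) and MAN1 (*Lemd3*) hold chromatin to this meshwork, in the case of LEM domain proteins through the small DNA-binding protein BAF (*Banf1*). LINC complexes cross both nuclear membranes, with a SUN protein in the inner membrane and a KASH protein in the outer one. SUN2 and the nesprins (*Syne1* and *Syne2*) are found in many cell types. In meiotic prophase, SUN1 and the KASH protein KASH5 (*Ccdc155*) connect telomeres to dynein in the cytoplasm, and SpdyA, the protein of the deleted gene, acts at the same telomere attachment sites.

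None of these genes was called as changed, which required an adjusted p below 0.05 together with a log2 fold change past 1 in either direction. The test was limma on log2(FPKM + 0.1), where FPKM counts the fragments on a gene relative to its length and to the size of the library. It ran over 12141 protein-coding genes whose mean exceeded 1 FPKM in the control group and in the cKO group. *Syne1* fell below that filter, so 9 of the 10 genes were tested. In this comparison 0.0165% of all tested genes were called, and the share was also 0.0165% without the fold change threshold. No member passed at adjusted p below 0.05 in limma or in limma's voom on the recovered fragments, and 1, *Sun2*, had an unadjusted p below 0.05 in each, where 10.9% of all tested genes did and 5.89% did with higher values in the cKO. The members' log2 fold changes, cKO against control, ranged from -0.33 for *Lemd3* to 0.25 for *Sun2*, with 4 above 0 and 5 below. Their median was -0.028, and the median over all tested genes was 0.0097. The 95% intervals of the 9 log2 fold changes ran from -0.84 at the lowest bound to 0.59 at the highest, so that each lay inside the threshold of 1 in both directions.

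Libraries held 13978342 to 19583091 fragments on genes. *Spdya* itself was measured at 20.8, 21.0, 23.8 and 19.7 FPKM in the control libraries and at 30.5, 22.2, 26.1 and 17.7 FPKM in the cKO libraries. Its log2 fold change was 0.15 (SE 0.16; limma adjusted p = 0.787). This value pools all exons of the gene, and fragments of exon 2 could not be separated from the rest, so it does not check the deletion. Of all tested genes, 2 were called, both lower in the cKO: *Ccdc42* (log2 fold change -1.35, limma adjusted p = 0.0215) and *5330417C22Rik* (-1.35, adjusted p = 0.0282), which are named here after their values were seen. Control 1 stood apart, with 0.464% of its fragments on mitochondrial genes, where the other 7 libraries had 2.20% to 3.74%.

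**Figure D1:**
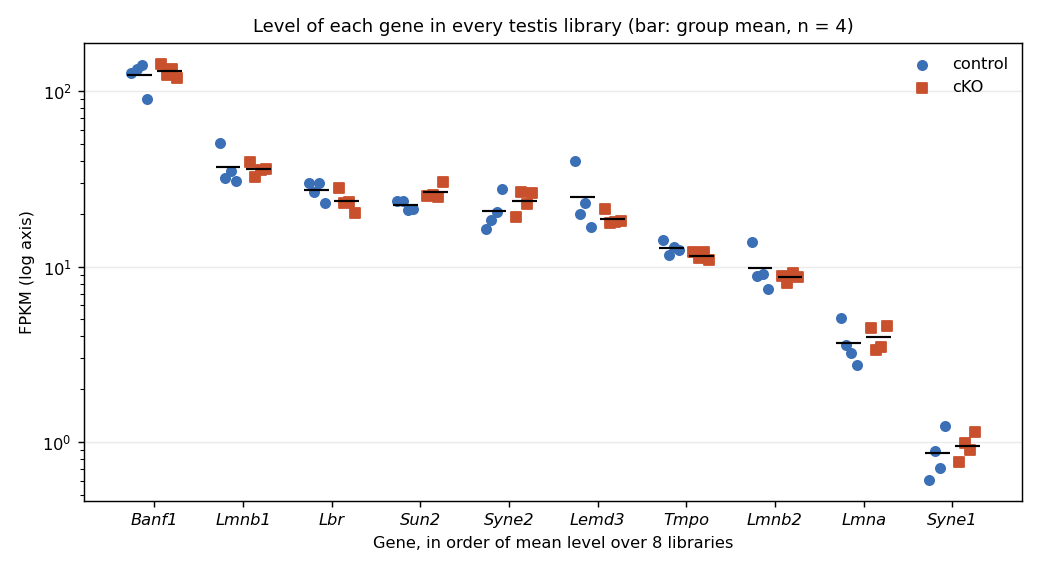
FPKM of each gene (log axis) in the 4 control libraries (blue circles, in order 1 to 4) and the 4 cKO libraries (orange squares, in order 1 to 4), with the group mean as a bar and genes ordered by mean level. *Banf1* was highest at a mean of 126 FPKM over 8 libraries and *Syne1* lowest at 0.907, and the 2 groups overlapped for every gene but *Sun2*.

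Per length, the 10 genes covered more than 2 orders of magnitude. *Banf1* was the most abundant at 126 ± 16.9 FPKM (SD over 8 libraries) and stood above *Lmnb1* in 8 of 8 libraries without overlap. *Lmnb1* followed at 36.4 ± 6.36 FPKM and also lay above the next gene, *Lbr*, in every library. The 4 genes that came next, *Lbr* (25.45 ± 3.58 FPKM), *Sun2* (24.45 ± 2.99), *Syne2* (22.2 ± 4.23) and *Lemd3* (21.8 ± 7.64), had no stable order: *Lbr* exceeded *Sun2* in 5 of 8 libraries, *Sun2* exceeded *Syne2* in 6, and *Syne2* exceeded *Lemd3* in 4. *Tmpo* (12.2 ± 1.06 FPKM) was above *Lmnb2* (9.25 ± 1.90) in 8 of 8 libraries, although their ranges overlapped. *Lmna* (3.81 ± 0.804 FPKM) and *Syne1* (0.907 ± 0.213) were the lowest. Among all tested genes, 98.6% were at or below the level of *Banf1* and 22.3% at or below that of *Lmna*.

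Of the lamin genes, *Lmnb1* (ENSMUSG00000024590, on chromosome 18) encodes lamin B1, present in most cell types. It measured 50.6, 32.0, 35.0 and 30.6 FPKM in control 1 to 4 and 39.3, 32.4, 35.3 and 35.8 FPKM in cKO 1 to 4. Control 1 was the highest library and the other 7 lay together. The means were 37.1 ± 9.22 (SD, n = 4) and 35.7 ± 2.81 FPKM, and the log2 fold change was -0.028 (95% interval -0.38 to 0.32; limma adjusted p = 0.963).

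*Lmnb2* (ENSMUSG00000062075, GRCm38 chr10:80901203-80918245, minus strand) encodes lamin B2. Its values were 13.7, 8.82, 9.08 and 7.46 FPKM in the controls and 8.83, 8.08, 9.24 and 8.74 FPKM in the cKO. Again control 1 was the highest, and the 4 cKO libraries lay among or just above the other 3 controls. The log2 fold change was -0.13 (95% interval -0.50 to 0.25; limma adjusted p = 0.835).

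*Lmna* (ENSMUSG00000028063, GRCm38 chr3:88480147-88509956, minus strand) measured 5.07, 3.56, 3.21 and 2.75 FPKM in control 1 to 4 and 4.49, 3.35, 3.48 and 4.59 FPKM in cKO 1 to 4. The spread among the controls covered all 4 cKO values. The log2 fold change was 0.14 (95% interval -0.29 to 0.57; limma adjusted p = 0.838). In each library *Lmnb1* exceeded *Lmna* per length, by 7.80 to 11.1 times, and *Lmna* made up 6.73% to 9.34% of the summed FPKM of the 3 lamin genes. That share was 7.21% ± 0.597 (SD, n = 4) in the controls and 8.19% ± 0.938 in the cKO, with overlapping ranges.

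*Lmna* has a second start of transcription that is known for the short germ cell form lamin C2, and the gene-level FPKM cannot separate it from the start for lamin A and lamin C. In RefSeq on GRCm38.p6 the outer start lies at position 88503352 and the inner one at 88493312, 10040 bases further into the gene. The deposited gene reaches beyond both, to 88509956, so this outer start is not the first base of the gene. In the GENCODE vM21 annotation the inner start is the first base of the transcript Lmna-202. Its first exon spans 76 bases within an intron of the transcripts Lmna-201 and Lmna-203 and covers 1.3% of the 5838 bases counted for the gene. The sequences before both starts are given to show the reader how the promoters of the somatic and the germ cell form differ, each from 250 to 41 bases before the start on the minus strand, 5′ to 3′. The bases nearer each start are left out, since the outer start lies in an exon of a longer transcript. Capitals mark every match to the motif CCAAT, to the GC box motif GGGCGG or to the TATA box motif TATAAA, on either strand.
Lmna outer start (chr3:88503393-88503602): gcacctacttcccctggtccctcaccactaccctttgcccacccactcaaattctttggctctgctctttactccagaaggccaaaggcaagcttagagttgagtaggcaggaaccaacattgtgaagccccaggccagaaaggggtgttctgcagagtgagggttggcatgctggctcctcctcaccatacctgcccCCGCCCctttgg
Lmna inner start (chr3:88493353-88493562): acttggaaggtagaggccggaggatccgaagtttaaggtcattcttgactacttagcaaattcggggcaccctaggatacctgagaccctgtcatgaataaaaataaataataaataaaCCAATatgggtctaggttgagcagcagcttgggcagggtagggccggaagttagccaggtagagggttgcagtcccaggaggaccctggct
In the whole 250 bases before the start, the outer promoter held 1 GGGCGG match and no CCAAT, and the inner one held 1 CCAAT and no GGGCGG. Of 32851 RefSeq promoter windows of that length, 33.8% held the motif CCAAT, 32.7% held a match to GGGCGG and 12.4% held the motif TATAAA. GC content was 56.4% before the outer and 52.8% before the inner start. These letter matches describe the windows and say nothing of which start was used in these testes.

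Among the proteins that hold chromatin to the lamina, *Lbr* (ENSMUSG00000004880, GRCm38 chr1:181815335-181843046, minus strand) encodes a membrane protein that binds B-type lamins and also acts as a sterol reductase. It measured 29.8, 26.7, 29.8 and 23.1 FPKM in control 1 to 4 and 27.9, 22.9, 23.2 and 20.2 FPKM in cKO 1 to 4. Of the cKO libraries 2 lay below every control, but cKO 1 lay above 2 of them and cKO 3 slightly above the lowest. The means were 27.35 ± 3.19 (SD, n = 4) and 23.6 ± 3.18 FPKM, with a log2 fold change of -0.22 (95% interval -0.50 to 0.067; limma adjusted p = 0.591). *Lbr* shares 440 bases at its 3′ end with *Dnah14*, a dynein heavy chain gene on the opposite strand that had 84.6% as many fragments. *Dnah14* averaged 7.40 FPKM in the controls and 5.21 FPKM in the cKO. Whether counting used strand is not given in the sources used here, so reads of the shared bases may have gone to either gene.

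*Tmpo* (ENSMUSG00000019961, GRCm38 chr10:91147571-91181315, minus strand), the gene of the lamina-associated polypeptide 2 isoforms, was the steadiest of the 10. Its values were 14.2, 11.6, 13.0 and 12.5 FPKM in the controls and 12.1, 11.2, 12.1 and 10.9 FPKM in the cKO. The groups overlapped through control 2. The SD of log2(FPKM + 0.1) over the 8 libraries was 0.12, and the log2 fold change was -0.15 (95% interval -0.36 to 0.070; limma adjusted p = 0.639).

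*Lemd3* (ENSMUSG00000048661, GRCm38 chr10:120923413-120979332, minus strand) encodes MAN1, a LEM domain protein that also binds SMAD proteins, and it varied most, with an SD of 0.40 on the same scale. It measured 40.02, 19.8, 23.0 and 16.7 FPKM in control 1 to 4 and 21.15, 17.7, 18.0 and 18.1 FPKM in cKO 1 to 4. Control 1 was 1.74 times the next highest library. The log2 fold change was -0.33 (95% interval -0.84 to 0.18; limma adjusted p = 0.657), and -0.074 without control 1, when the control mean was 19.85 ± 3.15 FPKM (SD, n = 3) beside 18.7 ± 1.61 (SD, n = 4) in the cKO.

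*Banf1* (ENSMUSG00000024844, GRCm38 chr19:5364641-5366645, minus strand) encodes BAF, which bridges DNA and LEM domain proteins and gathers membranes on chromatin after mitosis. Its levels were 126, 134, 140 and 89.9 FPKM in control 1 to 4 and 143, 123, 133 and 118 FPKM in cKO 1 to 4. Control 4 was the lowest library, and the other 7 formed one range. The means were 123 ± 22.5 (SD, n = 4) and 129.5 ± 11.2 FPKM and the log2 fold change was 0.096 (95% interval -0.25 to 0.44; limma adjusted p = 0.867). The deposited length of *Banf1*, 820 bases, was shorter than the 1496 bases of its joined exons in GENCODE vM21, while the lengths of the other 9 genes were equal to theirs. Its level relative to the other genes depends on that length, and the comparison between the groups does not.

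*Sun2* (ENSMUSG00000042524, GRCm38 chr15:79724070-79742536, minus strand) encodes the SUN protein of the inner membrane that pairs with nesprins in many tissues. It was the only member whose groups did not overlap, with 23.7, 23.5, 21.0 and 21.2 FPKM in control 1 to 4 and 25.3, 25.5, 25.01 and 30.5 FPKM in cKO 1 to 4. All 4 cKO values lay above the highest control, 3 of them by a small margin and cKO 4 by a wide one. Of all tested genes, 6.24% had no overlap between the groups and 3.64% had none with the cKO higher. The means were 22.3 ± 1.47 and 26.6 ± 2.61 FPKM (SD, n = 4). The log2 fold change of *Sun2* was 0.25 (SE 0.10, 95% interval 0.021 to 0.47), which is 1.19-fold, with an unadjusted p of 0.0353 and a limma adjusted p of 0.429. The adjusted p ranged from 0.219 to 0.970 over 20 other settings, and the unadjusted p stayed below 0.05 in 16 of these. It exceeded 0.05 when control 3, control 4, cKO 2 or cKO 4 was left out, with limma adjusted p-values of 0.738, 0.375, 0.671 and 0.970 in that order. *Sun2* therefore did not pass the test.

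The 250 bases before the start of *Sun2* (minus strand, start at 79742536) are printed because this gene had the smallest unadjusted p of the members, with the same motifs in capitals.
Sun2 (chr15:79742537-79742786): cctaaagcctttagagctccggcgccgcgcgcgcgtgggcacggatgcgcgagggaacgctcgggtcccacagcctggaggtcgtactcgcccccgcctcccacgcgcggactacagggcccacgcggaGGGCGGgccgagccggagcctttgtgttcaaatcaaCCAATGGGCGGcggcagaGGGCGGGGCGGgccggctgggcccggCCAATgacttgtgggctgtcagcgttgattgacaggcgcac
This window held 4 GGGCGG matches, some of which overlap, and 2 CCAAT matches, with a GC content of 70.8%. *Tmpo*, whose values were lower in the cKO by a difference within its interval, had the same counts of both motifs and the same GC content before one of its starts. An antisense transcript, *Gm16575*, covers 2225 bases of the *Sun2* locus on the other strand, and it had 0.488% as many fragments as *Sun2*.

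The nesprin genes are the longest of the group, with 40491 bases counted for *Syne1* and 26726 for *Syne2*. *Syne2* (ENSMUSG00000063450, GRCm38 chr12:75818134-76110926, plus strand) encodes nesprin-2 and measured 16.3, 18.4, 20.4 and 27.65 FPKM in control 1 to 4 and 19.2, 26.4, 22.8 and 26.2 FPKM in cKO 1 to 4. The highest value belonged to control 4 and the lowest to control 1, so the controls enclosed the cKO. The log2 fold change was 0.21 (95% interval -0.17 to 0.59; limma adjusted p = 0.715). *Syne1* (ENSMUSG00000096054, GRCm38 chr10:5020917-5551482, minus strand), the nesprin-1 gene, measured 0.609, 0.895, 0.714 and 1.23 FPKM in the controls and 0.766, 0.990, 0.902 and 1.15 FPKM in the cKO. These levels rested on 323 to 818 fragments per library. Control 4 was again the highest and control 1 the lowest. Without a filter on FPKM the log2 fold change of *Syne1* was 0.16 (limma adjusted p = 0.858). The ratio of *Syne2* to *Syne1* was 20.5 to 28.5 in the 8 libraries, with means of 24.6 ± 3.70 in the controls and 24.97 ± 1.59 in the cKO (SD, n = 4).

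*Sun2* and *Sun1*, the other widely used SUN gene, were at similar levels per length. Their FPKM ratio, *Sun2* over *Sun1*, was 0.785, 0.912, 0.717 and 0.879 in control 1 to 4 and 0.852, 1.06, 0.988 and 1.26 in cKO 1 to 4. The cKO values were the 3 highest of the 8, but cKO 1 lay below 2 of the controls. The ratio of *Lmnb1* to *Lmnb2* was 3.82 ± 0.212 in the controls and 4.09 ± 0.261 in the cKO, with overlapping ranges (3.64 to 4.45 over all).

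**Figure D2:**
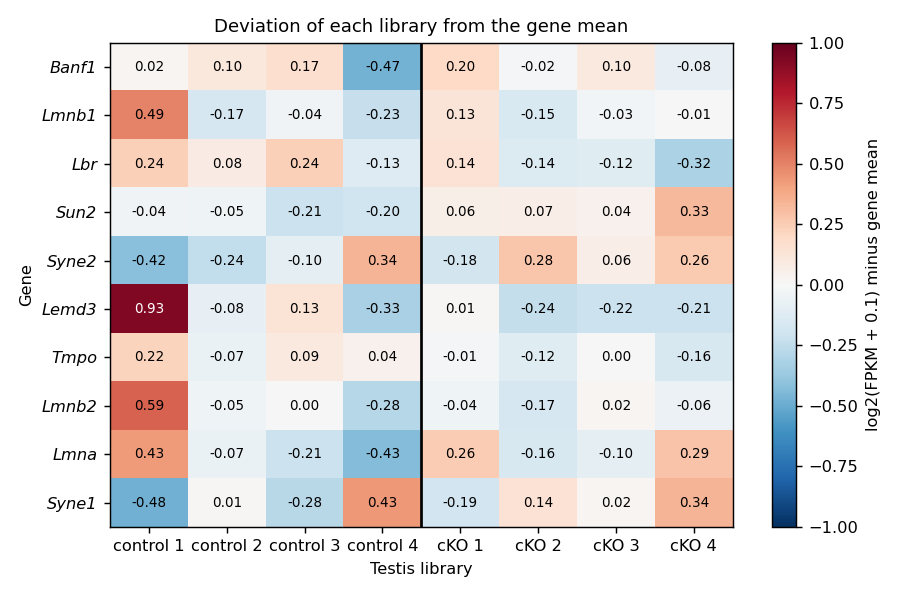
Deviation of each library from the gene's mean over 8 libraries on the log2(FPKM + 0.1) scale, for the 10 genes in order of level (rows) and the 4 control and 4 cKO libraries (columns, divided by the black line). Control 1 was the highest library for 5 genes and control 4 the lowest for 5, and the controls varied more than the cKO for most genes.

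For *Lmna*, *Lmnb1*, *Lmnb2*, *Lemd3*, *Syne1* and *Syne2* the highest and the lowest library were both controls. For *Sun2* every cKO value lay above the controls, and for *Tmpo*, *Lbr* and *Banf1* a cKO library was an extreme. Control 1 was the highest library for *Lmna*, *Lmnb1*, *Lmnb2*, *Tmpo* and *Lemd3* and the lowest for *Syne1* and *Syne2*. Control 4 was the reverse for 6 of these genes, being the lowest for *Lmna*, *Lmnb1*, *Lmnb2* and *Lemd3* and the highest for *Syne1* and *Syne2*. Over all 12141 tested genes, 34.2% were highest in control 1 and 23.8% lowest in control 4. The coefficient of variation of *Lmnb2* was 28.0% among the controls and 5.52% among the cKO, and that of *Lemd3* 41.8% and 8.61%. Only for *Sun2* and *Lbr* was it larger in the cKO.

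Gene length moved with these libraries. Among tested genes over 10 kb long, the median deviation from the gene mean was -0.081 in control 1 and 0.12 in control 4 on the log2 scale, and among those of 1 to 10 kb it was 0.075 and -0.068. Among genes under 1 kb, the class of *Banf1* by its deposited length, it was -0.15 in control 4. By its 1496 bases of joined exons in GENCODE vM21, *Banf1* would fall in the class of 1 to 10 kb. The part of length in the members' values was not tested.

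**Figure D3:**
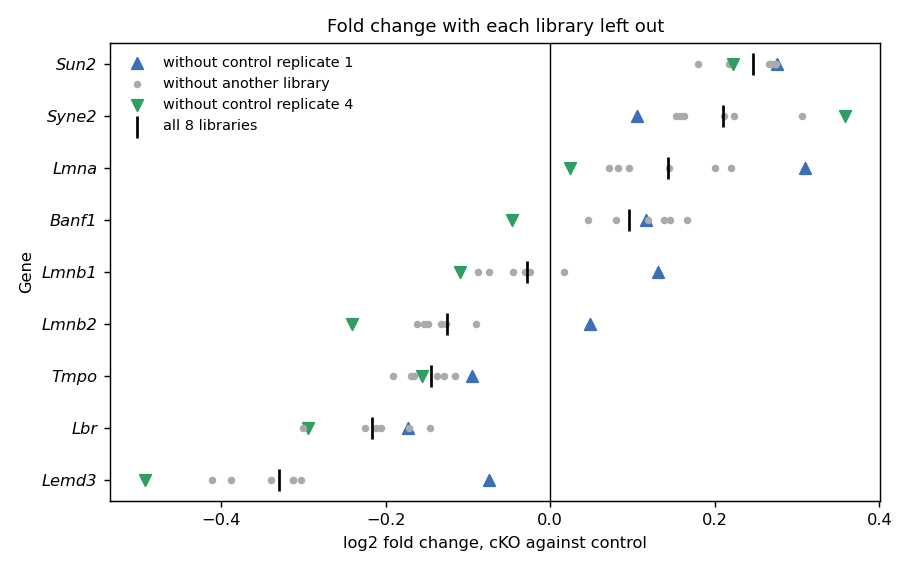
log2 fold change, cKO against control, of the 9 tested genes with all 8 libraries (black bars), without control 1 (blue triangles pointing up), without control 4 (green triangles pointing down) and without each other library (grey points). Omitting control 1 moved *Lemd3* to -0.074 and *Lmnb1* and *Lmnb2* above 0, and omitting control 4 moved *Banf1* below 0, while *Sun2* and *Syne2* stayed above 0 and *Tmpo*, *Lbr* and *Lemd3* below.

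Several fold changes rested on these libraries. Without control 1, the log2 fold change of *Lmnb1* was 0.13 and that of *Lmnb2* 0.049, both above 0, and that of *Lmna* was 0.31 with a limma adjusted p of 0.364. Without control 4, *Banf1* was at -0.047, *Lemd3* at -0.49 and *Lmna* at 0.023, and 3 members (*Lbr*, *Lemd3* and *Syne2*) had an unadjusted p below 0.05, the smallest adjusted p being 0.273 for *Syne2*. In that fit 14.97% of all tested genes had an unadjusted p below 0.05. *Lmnb1* also changed sign without cKO 2, to 0.017. With any single library left out, the log2 fold change of *Sun2* ranged from 0.18 to 0.275 and that of *Syne2* from 0.11 to 0.36, while that of *Lbr* ranged from -0.30 to -0.15 and that of *Tmpo* from -0.19 to -0.095.

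The cell types in the testes also differed between libraries, as far as marker genes show. In bulk RNA, fewer cells of a type and less RNA per cell cannot be told apart. Spermatocyte markers were strongly expressed, with a summed level of 1281 to 1821 FPKM in the controls and 1141 to 1706 FPKM in the cKO, and all 7 tested had lower mean log2 values in the cKO, 2 of them at unadjusted p below 0.05 and 0 at adjusted p below 0.05 in limma. The spermatocyte marker *Hist1h1t*, the testis-specific H1 histone, was too low to be tested, at 0.335, 0.302, 0.210 and 0.268 FPKM in control 1 to 4 and 0.735, 0.893, 0.715 and 0.323 FPKM in cKO 1 to 4. Unlike the 7 tested markers it had the higher mean in the cKO, where 3 of the 4 libraries lay above every control. These levels rested on only 3 to 13 fragments per library. Spermatogonia markers, of which *Uchl1* was the most abundant, summed to 186 to 238 FPKM in the controls and 223 to 236 FPKM in the cKO, with 6 of 8 log2 fold changes above 0 and 1 gene at unadjusted p below 0.05. That gene was *Stra8*, a gene of meiotic entry that is named here after its values were seen, at 5.92, 4.53, 19.8 and 12.9 FPKM in the controls and 2.03, 3.92, 2.93 and 4.70 FPKM in the cKO. Its log2 fold change was -1.46 (limma unadjusted p = 0.00735, adjusted p = 0.280), and the groups overlapped. Spermatid markers summed to 2.52 to 9.56 FPKM in all libraries, most of it *Spaca1*, and the other 5 of the 6 genes were at 0 in at least 1 library.

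Every tested marker of somatic cells other than Sertoli cells had a higher mean log2 value in the cKO. *Tagln*, *Hba-a2* and *Insl3*, too low to be tested, had a lower mean FPKM in the cKO. Their means were 0.855, 0.901 and 0.576 FPKM in the controls and 0.713, 0.734 and 0.572 FPKM in the cKO. *Cyp17a1*, *Cyp11a1*, *Cnn1*, *Vwf* and *Alas2*, also too low, had a higher mean there. Macrophage markers summed to 12.3 to 19.95 FPKM in the controls and 21.0 to 25.04 FPKM in the cKO, with 3 of 5 tested at unadjusted p below 0.05. Of all tested genes, 5.89% were at that threshold with higher values in the cKO. For endothelial markers the sums were 5.82 to 12.8 and 11.8 to 15.1 FPKM (2 of 4 tested), for peritubular myoid cell markers 45.6 to 76.6 and 75.45 to 105 FPKM (1 of 4), for Leydig cell markers 16.5 to 37.9 and 28.6 to 46.7 FPKM (2 of 3), and for red blood cell markers 10.8 to 39.8 and 22.0 to 46.7 FPKM (1 of 3). None of these markers passed at adjusted p below 0.05 in limma, and none was at 0 in any library. Sertoli cell markers summed to 363 to 494 FPKM in the controls and 391 to 491 FPKM in the cKO, with 0 of 8 at unadjusted p below 0.05. *Sun2* and the nesprins are expressed in many cell types, and the part of these cell types in the values of *Sun2*, *Syne1*, *Syne2* and *Lmna* was not tested.

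Other envelope genes were taken from 6 lists, with 53 genes of which 48 were tested. None passed at adjusted p below 0.05 in limma (the smallest was 0.260), 5 had an unadjusted p below 0.05, and all 5 were lower in the cKO. These 5 were 10.4% of the 48 genes, near the 10.9% of all tested genes. Of all tested genes at that threshold, 54.1% were higher in the cKO. The median log2 fold change of the 48 envelope genes was -0.060. Control 1 was the highest library for 23 of the 48 genes.

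In the list of other SUN and KASH proteins, 5 of 8 genes were tested. *Sun1* measured 24.1 to 30.2 FPKM in the controls and 24.1 to 29.7 FPKM in the cKO, with a log2 fold change of -0.081 (95% interval -0.33 to 0.17; limma adjusted p = 0.844). *Ccdc155*, the gene of KASH5, was the most abundant of the list, at 49.8 to 104 FPKM in the controls and 58.6 to 93.6 FPKM in the cKO (log2 fold change -0.099, limma adjusted p = 0.909). *Sun3*, known as a SUN protein of spermatids, had 2.41, 4.42, 6.01 and 3.99 FPKM in the controls and 2.58, 2.02, 2.05 and 2.45 FPKM in the cKO. Its log2 fold change was -0.79 (limma unadjusted p = 0.00792, adjusted p = 0.287), and control 1 lay within the cKO range.

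Of the meiotic telomere attachment genes all 6 were tested. *Terb1* and *Terb2*, which encode subunits of the complex that ties telomeres to the membrane, had log2 fold changes of -0.85 and -0.58 (limma unadjusted p = 0.00682 and 0.00543, adjusted p = 0.276 and 0.260). *Terb1* measured 7.60 to 17.8 FPKM in the controls and 4.54 to 6.67 FPKM in the cKO, without overlap. Control 1 alone held the value of 17.8 FPKM, and the other controls had 7.60 to 8.67 FPKM. Of all tested genes, 6.24% had no overlap between the groups. *Terb2* measured 9.61 to 12.2 FPKM in the controls and 6.15 to 10.5 FPKM in the cKO, with overlap through cKO 1. *Majin*, the membrane-spanning subunit and the most abundant of the list, had a log2 fold change of -0.13 (adjusted p = 0.806). None of these genes passed the test. The spermatocyte marker sums given above overlapped between the groups, and their part in these values was not tested.

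Of the other inner membrane and LEM domain genes, 11 of 12 were tested. *Ankle1*, a LEM domain nuclease, had a log2 fold change of -0.62 (limma unadjusted p = 0.0439, adjusted p = 0.449). *Lemd2*, the closest relative of *Lemd3* and the most abundant gene of the list, measured 151 FPKM in control 1 and 37.7 to 65.1 FPKM in the other 7 libraries, a pattern like that of *Lemd3*. Of the enzymes that process the lamin tail 0 of 5 had an unadjusted p below 0.05, and *Icmt*, which methylates it, was the most abundant, at a log2 fold change of -0.23 (adjusted p = 0.710). Of the BAF regulators, torsins and envelope sealing proteins *Gmcl1*, a partner of the LAP2 protein, was the most abundant and had an unadjusted p of 0.0337 (log2 fold change -0.40, limma adjusted p = 0.421). Among 12 nuclear pore genes 0 had an unadjusted p below 0.05, and the most abundant, *Nup205*, had a log2 fold change of -0.23 (adjusted p = 0.616).

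**Figure D4:**
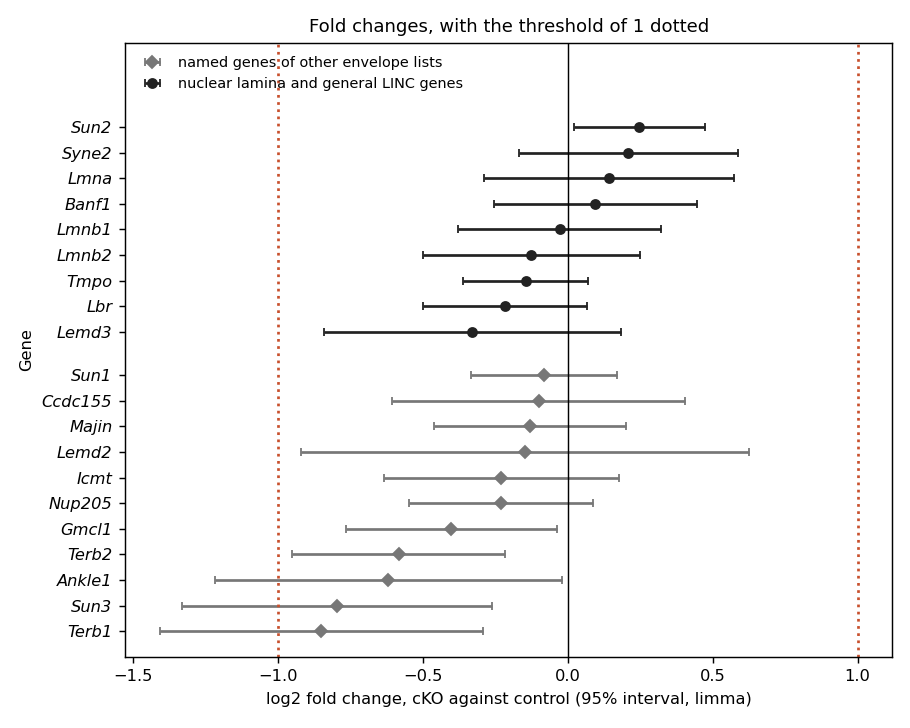
log2 fold change, cKO against control, with 95% intervals from limma for the 9 tested genes of the lamina and general LINC complexes (black circles) and for the named genes of the other envelope lists (grey diamonds), with dotted lines at the threshold of 1. Intervals of the black circles stay within the dotted lines and, except for *Sun2*, include 0, and those of *Gmcl1*, *Ankle1*, *Terb1*, *Terb2* and *Sun3* lie below 0.

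The 3 members with the largest spread over the libraries were set against all 12141 tested genes, by the mean absolute difference between the libraries' deviations on the log2 scale. *Lemd3* was closest to *Creld2* (0.033) and *Tinf2* (0.047), *Syne1* to *Peg10* (0.050) and *Nav2* (0.052), and *Lmna* to *Evpl* (0.051) and *Shkbp1* (0.070). For *Lemd3* this likeness follows the height of control 1, and for *Syne1* the contrast of control 1 and control 4. No copy or pseudogene named after a member was found in the table.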

How the data were processed

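Whole-testis RNA was sequenced by the study as paired ends (4 control, 4 cKO), with GRCm38 and mm10 named in the submitters' processing notes. The aligner and counter are not given in the sources used here, and the labels and the methods differ on the RNA kit and, slightly, on the tamoxifen times. The authors deposited FPKM values for 54532 genes, with gene lengths, scaled per library by the authors, and each library's own file repeated them. FPKM multiplied by length gave whole fragments in 100% of values (tolerance 0.02). The counts of the most similar replicates differed with a chi-square of 3.94 per gene, above sampling noise, and no libraries were merged.

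limma 3.58.1 in R 4.3.3 (lmFit, eBayes with trend) was run on log2(FPKM + 0.1), 4 against 4 with no covariate, for protein-coding genes whose group means both exceeded 1 FPKM, with Benjamini-Hochberg adjustment over all 12141. Fold changes are on that scale and understate those of low genes. The main test was run on FPKM, the deposited unit, although whole fragments could be recovered. limma's voom on the recovered fragments was an alternative and also called 2 of all tested genes. No other test was run on the recovered fragments. The study used a count test with the same thresholds and reports more differentially expressed genes than were called here, all of them autosomal. The reason for that difference was not tested. The procedure was tested on simulated data. Alternatives were pseudocounts, filters, centring, TPM, array weights, eBayes without trend, a replicate block and each library left out. Coordinates follow the table, and 98.3% of its genes found in GENCODE vM21 had the same start and end. Promoters are from RefSeq on GRCm38.p6. *Lmnb1* was left out of the promoter search, and the other 9 members had an entry.

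The members and lists were chosen with earlier results of these data known. Beyond the members, the text names *Sun1* and *Ccdc155*, each list's most abundant gene, up to 4 genes per list with an unadjusted p below 0.05, genes that overlap a member, and the 2 genes most like each of the 3 most variable members. Figures were drawn with matplotlib.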

Additional observations from a re-analysis of the deposited data

Results flagged for a closer look

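In 4 of 44 groups of 4 libraries examined (the members and named genes, and the mitochondrial share), 1 library stood apart from the other 3 by a gap near the whole range, and chance gives about 1 in 20. *Sun2* in cKO 4 was at 30.5 FPKM, where the other cKO libraries had 25.01 to 25.5 FPKM. *Lemd3* in cKO 1 was at 21.15 FPKM, where the others had 17.7 to 18.1 FPKM. *Terb1* in control 1 was at 17.8 FPKM, where the other controls had 7.60 to 8.67 FPKM. The mitochondrial share of control 1 was 0.464%, where the other controls had 2.97% to 3.39%.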

How the results depend on the processing

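The count of members called and the count at adjusted p below 0.05 were 0 in all 20 other fits. The count at unadjusted p below 0.05, 1 in the fit reported, was 2 with array weights and 0 to 3 with a library left out. The share of all tested genes at that threshold, 10.9% in the fit reported, was 20.95% with array weights and 5.65% to 15.6% with a library left out. The count without overlap between the groups was 1 to 2 with a library left out, and 1 after centring and in TPM. The members' median log2 fold change stayed between -0.11 and 0.11.

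*Lmnb1* was above 0 in TPM (0.051), with voom (0.0035) and with array weights (0.052), and from -0.11 to 0.13 with a library left out. The corresponding ranges were -0.047 to 0.17 for *Banf1* and -0.24 to 0.049 for *Lmnb2*. The other 172 member values kept their sign. The cause was not tested.

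Over all tested genes, 2 were called in the fit reported, 4 with all biotypes, 57 with array weights, which gave control 1 a weight of 0.161, 1 after centring or in TPM, 0 without a filter or with a mean FPKM above 5, and 0 to 3 with a library left out. Of the genes at unadjusted p below 0.05, 54.1% were higher in the cKO, and 71.6% in TPM, where the median of all genes was 0.088.

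Same-numbered libraries of the groups correlated in their deviations at 0.288, 0.131, 0.0757 and 0.406, all above 0, with 1 pair under 0.1. The paper describes its controls as littermates, but nothing in the sources used here ties a replicate number to a litter. Pairing by number was therefore not adopted. With the replicate block, 2 members (*Sun2* and *Lbr*) had an unadjusted p below 0.05, as did 14.6% of all tested genes, 0 members were called, and 0 of all genes were called.

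With 4 libraries a group the members' 95% intervals were 0.22 to 0.51 wide on either side, so smaller changes could not be told from no change. Larger ones could still fail the adjusted threshold, as that of *Sun2* did (log2 fold change 0.25, limma adjusted p = 0.429). The limma p-values set each difference between the group means against the spread between these mice, moderated over all tested genes.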
